A study of Homo sapiens with 6 samples.

Results

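The RAB and ARF families are small GTPases that direct membrane traffic. They were followed here in SK-N-BE(2) cells given a hairpin against BRG1. Members were the named genes whose symbol is RAB, ARF, ARL or TBC1D followed by digits and at most a letter suffix, without antisense genes and pseudogenes. RAB40AL was also allowed. The rule found 16 of the 14883 named genes, made up of 5 ARF genes, 8 ARL genes, 2 TBC1D genes and 1 RAB gene. RefSeq's gene table lists 134 protein-coding symbols of this form, and the other 118, among them 63 of its 64 RAB symbols, are not analysed here. The set is therefore one of ARF and ARL genes more than of RAB genes, and it covers all 5 ARF genes of the table, 8 of its 22 ARL genes and 2 of its 43 TBC1D genes.

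SK-N-BE(2) is an established human neuroblastoma line, and both groups were infected with a pLKO lentivirus. The control virus carried a non-silencing hairpin (NSC, n = 3) and the other a hairpin against BRG1, the ATPase of the SWI/SNF remodelling complex (shBRG1, n = 3). Only 1 hairpin label is given, and total RNA was taken 48 h after infection and hybridised to 1 array per sample. Nothing in the labels says that the triplicates were separate cultures, so the tests weigh changes against a spread that may be purely technical. The values are log2 levels after robust multiarray averaging (RMA), so 1 unit is a doubling, and a change is the shBRG1 mean minus the NSC mean.

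Array medians lay between 3.77 and 3.84, and arrays correlated at 0.991 to 0.993 within groups and at 0.986 to 0.988 between groups. SMARCA4, which encodes BRG1, is not analysed here, so the groups rest on their labels. Of 15 adrenergic neuroblastoma markers 12 were measured, and all 12 lay above the median named gene, at levels of 7.66 to 11.32. By limma 6 of these 12 fell and 0 rose, and the median level of the 12 was 9.67 in NSC and 9.48 in shBRG1. Of the 3 measured epithelial and 3 measured endothelial markers 0 lay above it, and of the glial and leukocyte markers 1 of 4 and 1 of 2 did. Of these 4 groups of markers, 1 glial marker fell and the others were not past the threshold. Both measured fibroblast markers lay above it by their mean of 6 arrays, DCN at 5.18 and LUM at 8.44, against 5.09 for the median gene. The NSC mean of DCN, 4.96, was below that median. Both were higher in shBRG1, DCN by 0.44 (adjusted p = 0.00924, limma) and LUM by 0.39 (adjusted p = 0.0268). The other 4 listed fibroblast markers are not analysed here, and the part of adrenergic, glial and fibroblast markers in the changes of the members was not tested. In bulk RNA, fewer cells of a type and less RNA per cell cannot be told apart.

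Small GTPases of these families switch between a GTP-bound form on membranes and a GDP-bound form. Exchange factors (GEFs) load them with GTP, and GTPase-activating proteins (GAPs), which for RAB proteins mostly carry a TBC domain, turn them off. ARF proteins recruit coats and lipid enzymes at the Golgi and the plasma membrane. ARL proteins act at the trans-Golgi, on lysosomes and microtubules, and in the primary cilium, while RAB proteins mark compartments from the endoplasmic reticulum to secretory vesicles. In neurons and neuroendocrine cells these pathways carry granules, receptors and membrane to the cell surface and into neurites.

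ARL1, a Golgi GTPase, rose, and ARL6, a ciliary GTPase, fell. They were the only members past an adjusted p of 0.05 in the limma fit over all named genes, 2 of 16 members (12.5%) against 17.0% of all named genes. By direction, 1 of 16 was higher, where 9.78% of all genes were, and 1 was lower, where 7.19% were. The members' shares were thus near those of all genes. The median change was 0.06 over the members and 0.0059 over all named genes. The members' median was 0.0011 after cyclic loess, 0.027 without NSC replicate 3, 0.032 without NSC replicate 2 and -0.0028 with dim genes left out (11 members), so it has no settled sign. Over all genes kept, the median was 0.057 with dim genes left out and 0.00028 after cyclic loess. The gap between 0.06 and 0.0059 is therefore not particular to the members. The median size of a change, whatever its sign, was 0.13 for members and 0.14 for all genes. At an unadjusted p under 0.05 there were 6 members, ARF4, ARL9, TBC1D31 and TBC1D32 besides the called pair, and 4528 of all 14883 genes. The 3 shBRG1 values lay outside the NSC range for 7 members, 5 higher and 2 lower, and for 35.5% of all genes (20.3% higher and 15.3% lower).

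**Figure D1:**
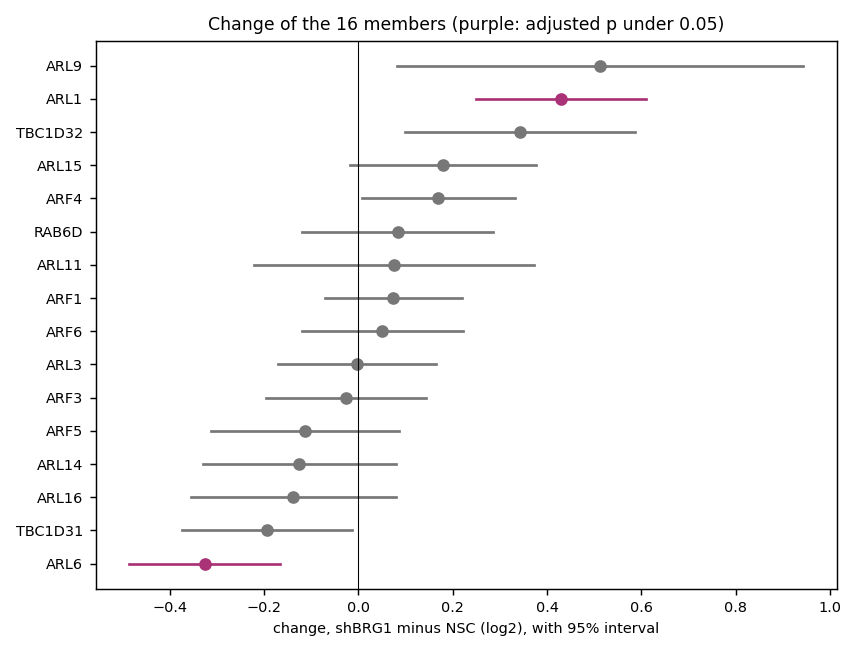
Change of each of the 16 members, shBRG1 minus NSC on the log2 scale (x axis), with the 95% interval from limma as a line and purple marking an adjusted p under 0.05. ARL1 at 0.43 and ARL6 at -0.33 are past the threshold, and the intervals of ARL9, TBC1D32, ARF4 and TBC1D31 exclude 0 before adjustment only.

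The promoters of ARL1 and ARL6 are shown because these members passed the test, in opposite directions. Each is the stretch of 250 bases before the annotated start in RefSeq (GRCh38.p14), read 5′ to 3′ on the gene's strand. The ARL1 stretch is chr12:101407773-101408022 on the minus strand and the ARL6 stretch chr3:97764508-97764757 on the plus strand. Both strands were searched for the CCAAT box (CCAAT), the GC box (GGGCGG), the E-box bound by MYC proteins (CACGTG), the AP-1 site (TGACTCA) and the cAMP response element (TGACGTCA). No motif holds another, and capitals mark a match.
ARL1: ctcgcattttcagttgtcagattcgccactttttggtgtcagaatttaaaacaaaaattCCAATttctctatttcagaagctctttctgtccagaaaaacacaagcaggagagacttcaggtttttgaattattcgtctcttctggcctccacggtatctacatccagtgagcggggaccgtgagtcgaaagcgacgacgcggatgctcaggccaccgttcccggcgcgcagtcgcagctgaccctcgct
ARL6: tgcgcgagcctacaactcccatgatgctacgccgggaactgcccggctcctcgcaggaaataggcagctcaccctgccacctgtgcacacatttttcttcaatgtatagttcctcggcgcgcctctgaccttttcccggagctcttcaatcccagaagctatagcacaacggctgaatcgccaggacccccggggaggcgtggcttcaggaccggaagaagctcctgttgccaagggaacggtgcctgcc

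The ARL1 stretch holds 1 CCAAT, which starts 191 bases before the gene's start, and none of the other motifs, and the ARL6 stretch holds none of the motifs searched. Promoter entries matched 13 members (the others are ARF4, ARL14 and TBC1D31). A GC box was present in 10 of these 13 and in 56.0% of 15843 protein-coding promoters, and ARL1 and ARL6 were among the 3 members without one, with TBC1D32. A CCAAT was present in 4 of 13, against 34.5% of all promoters, and an E-box in 1 of 13, that of ARL3, against 7.84%. No member stretch held the AP-1 site (3.17% of all) or the cAMP response element (2.32%). GC content was 49.2% for ARL1 and 59.6% for ARL6, within a range of 34.0% (RAB6D) to 77.2% (ARF1 and ARF5) over the members, whose median of 63.2% compares with 62.4% over all promoters. A match is a string of letters and says nothing of what binds there.

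ARL1 sits on the trans-Golgi, where it recruits golgins with a GRIP domain and the arfaptins. Its level was 7.02, 7.00 and 7.02 in the 3 NSC samples and 7.50, 7.31 and 7.52 in the 3 shBRG1 samples. The groups did not overlap, and the NSC values lay much closer together than the shBRG1 values, of which replicate 2 was the lowest. The means were 7.01 ± 0.0075 and 7.44 ± 0.11 (SD, n = 3), a 1.35-fold rise (log2 change 0.43, SE 0.078, 95% interval 0.25 to 0.61, adjusted p = 0.00946 by limma). ARL1 passed under every alternative setting run, with changes of 0.37 to 0.50 and adjusted p-values of 0.00089 to 0.040.

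ARL6, also known as BBS3, recruits the BBSome coat that moves membrane proteins in and out of the primary cilium. Its level was 8.40, 8.39 and 8.35 in NSC and 7.99, 8.04 and 8.13 in shBRG1. All shBRG1 values lay below all NSC values. The means were 8.38 ± 0.029 and 8.05 ± 0.070 (SD, n = 3), a 1.25-fold fall (log2 change -0.33, SE 0.069, 95% interval -0.49 to -0.17, adjusted p = 0.0171 by limma). The direction held under every setting run, with changes of -0.39 to -0.29, but the call did not. With limma the adjusted p was 0.056 without NSC replicate 1, 0.052 without NSC replicate 2, 0.064 without shBRG1 replicate 1 and 0.053 without shBRG1 replicate 2, and it was 0.065 when every probe set of the array was tested.

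**Figure D2:**
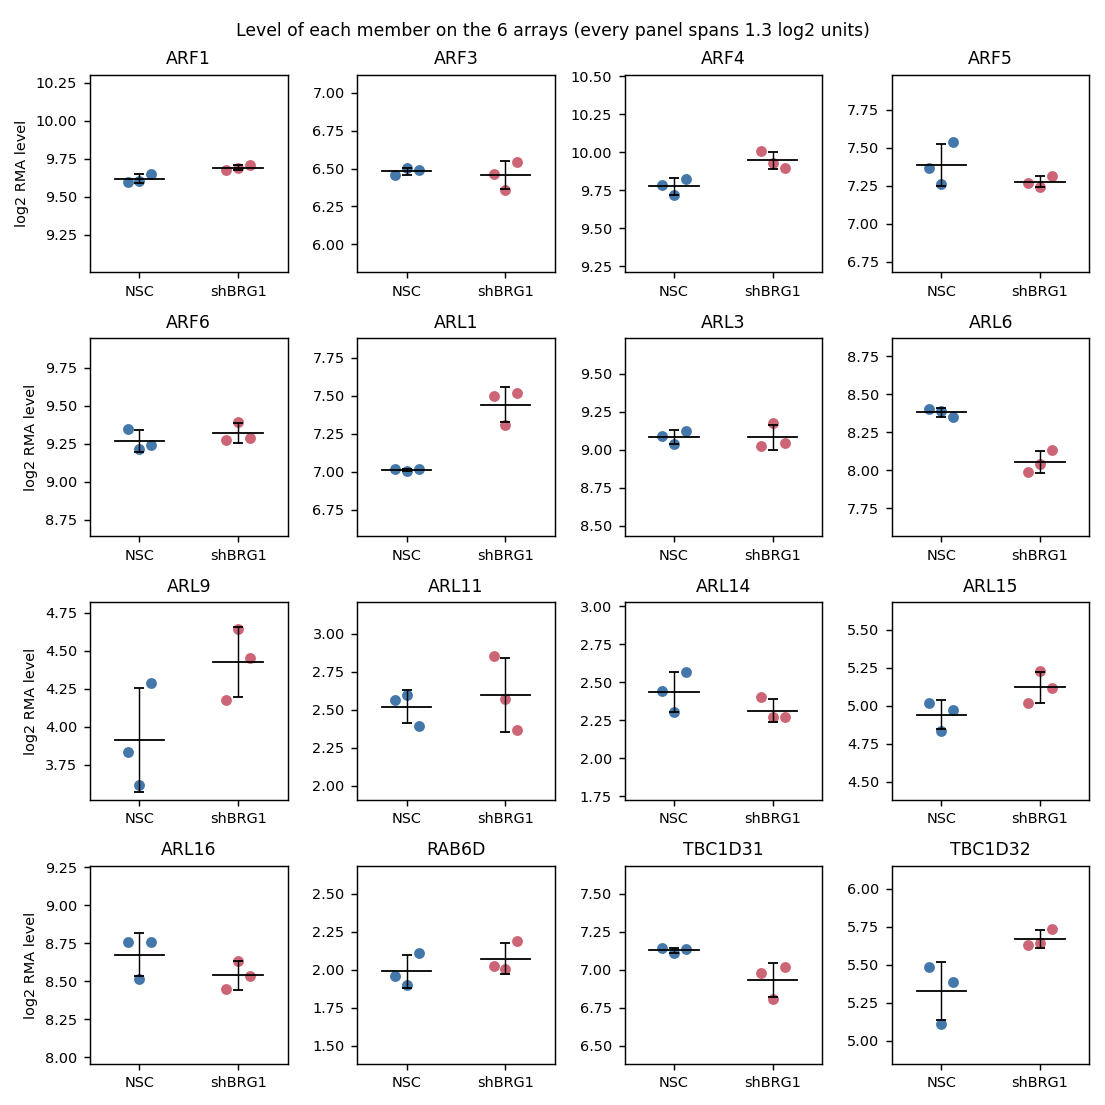
Log2 RMA level (y axis, 1.3 units in every panel) of each member in the 3 NSC (blue) and 3 shBRG1 (red) samples, with the mean as a bar and the SD as whiskers. ARL1 and ARL6 show separated groups, with means of 7.01 and 7.44 and of 8.38 and 8.05, while the groups of ARL3 and ARF6 lie over each other.

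The ARF proteins, the coat-recruiting core of the family, had 0 of 5 members past the threshold by limma, against 17.0% of all named genes. At an unadjusted p under 0.05 there was 1 of 5, ARF4, beside 4528 of all 14883 genes. With only 5 genes, these counts do not set the ARF genes apart from all genes. The changes of the 5 ARF genes ran from -0.11 to 0.17. ARF1, which recruits the COPI coat at the Golgi, was at 9.60, 9.61 and 9.65 in NSC and 9.68, 9.69 and 9.71 in shBRG1. The groups did not overlap, but the change of 0.07 (SE 0.062, 95% interval -0.07 to 0.22, adjusted p = 0.488, limma) was within the error of the fit. After cyclic loess the change of ARF1 was 0.013.

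ARF3, the closest relative of ARF1 and the other class I ARF, had a pair of probe sets that disagreed. The brighter read 6.46, 6.50 and 6.49 in NSC and 6.46, 6.36 and 6.54 in shBRG1, a change of -0.03 (adjusted p = 0.850). The dimmer read 5.76, 5.66 and 5.56 in NSC and 5.91, 5.87 and 5.81 in shBRG1, a change of 0.20 (SE 0.084, adjusted p = 0.264 over every probe set). The groups overlapped on the brighter probe set and not on the dimmer one, and with the probe sets averaged the change was 0.09 (adjusted p = 0.429), so no direction is given for ARF3.

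ARF4 and ARF5 are the class II ARFs of the early secretory pathway. ARF4 was at 9.78, 9.72 and 9.83 in NSC and 10.01, 9.93 and 9.90 in shBRG1, without overlap, a change of 0.17 (SE 0.069, 95% interval 0.0078 to 0.33). Its adjusted p was 0.147 by limma, and 0.013 with a trended and robust spread, the only setting run in which it passed. ARF5 was at 7.37, 7.26 and 7.54 in NSC and 7.27, 7.24 and 7.32 in shBRG1, with overlap and a change of -0.11 (adjusted p = 0.441). The log2 ratio of ARF4 to ARF5 was 2.42, 2.45 and 2.29 in NSC and 2.74, 2.69 and 2.58 in shBRG1, so their changes differed by 0.28. This was 1 of 3 pairs set side by side after their values were seen, with ARF1 against ARF3 (a difference of 0.10 on the brighter ARF3 probe set) and ARL6 against ARL3 (-0.32). In each the groups did not overlap, and the exact two-sided permutation p was 0.10 before and after adjustment, the smallest that 3 against 3 samples allow. With the dimmer ARF3 probe set, an alternative chosen after seeing the data, the difference from ARF1 was -0.13 and the groups overlapped, so that pair gives no direction.

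ARF6, the ARF of the plasma membrane and recycling endosomes, was at 9.35, 9.21 and 9.24 in NSC and 9.27, 9.39 and 9.29 in shBRG1. The groups overlapped, and the change of 0.05 had a 95% interval of -0.12 to 0.22 (adjusted p = 0.701). After cyclic loess it was -0.011, so its sign is not settled.

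**Figure D3:**
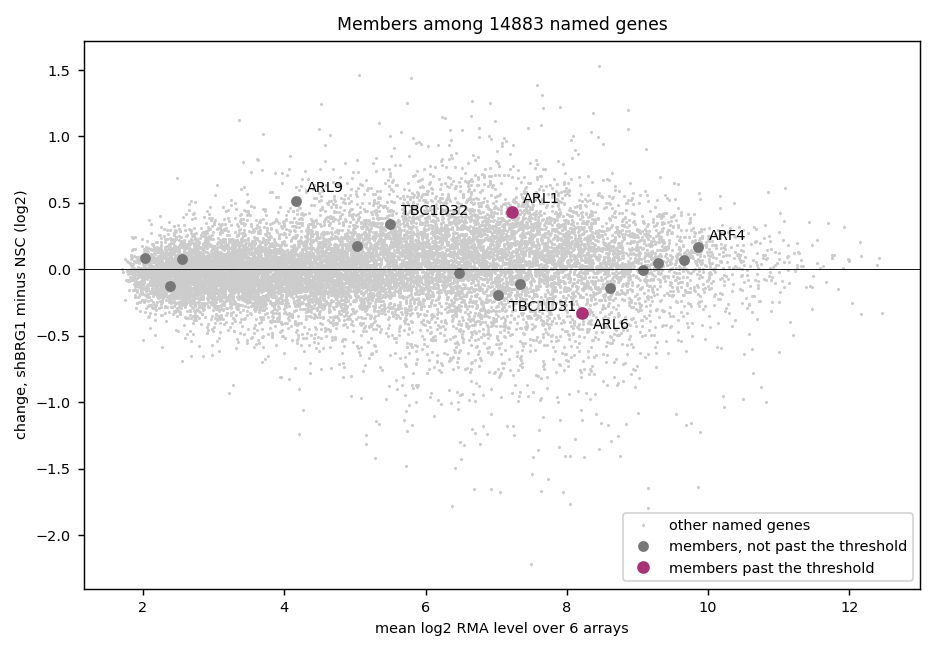
Change, shBRG1 minus NSC (y axis, log2), against the mean log2 level over 6 arrays (x axis) for all 14883 named genes (light dots) and the 16 members (large dots, purple where past the threshold). The members lie within the cloud of other genes, and ARL11, ARL14 and RAB6D, below 2.6, sit where most genes have changes near 0.

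The other ARL members included another cilium GTPase. ARL3, which releases lipid-anchored cargo from its carriers inside the cilium, was at 9.09, 9.04 and 9.12 in NSC and 9.02, 9.17 and 9.05 in shBRG1. The groups overlapped and the change was -0.0028 (95% interval -0.17 to 0.17, adjusted p = 0.987), beside the fall of 0.33 on the log2 scale for ARL6. ARL16 was at 8.76, 8.51 and 8.76 in NSC and 8.45, 8.63 and 8.53 in shBRG1, with overlap and a change of -0.14 (adjusted p = 0.380).

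ARL15 read 5.02, 4.83 and 4.97 in NSC and 5.02, 5.22 and 5.12 in shBRG1, a change of 0.18 (adjusted p = 0.203), and although the groups did not overlap, its highest NSC and lowest shBRG1 values were both 5.02. ARL9 had the largest change of any member and the widest error. It was at 3.83, 3.62 and 4.29 in NSC and 4.18, 4.64 and 4.46 in shBRG1, a change of 0.51 (SE 0.18, 95% interval 0.08 to 0.94, adjusted p = 0.105). The groups overlapped because of NSC replicate 3, and without that sample the change was 0.70 (adjusted p = 0.030). It was 0.36 (adjusted p = 0.253) without NSC replicate 2 and 0.40 (0.266) without shBRG1 replicate 2. Its level was below the median named gene (5.09), where RMA values can be background.

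ARL11, ARL14 and the only RAB member, RAB6D, were dimmer still, with means over the 6 arrays of 2.56, 2.38 and 2.03. ARL14 is known from vesicle transport in dendritic cells. All 3 had overlapping groups, with changes of 0.08 for ARL11 (adjusted p = 0.748), -0.12 for ARL14 (0.399) and 0.08 for RAB6D (0.584). RAB6D is a close copy of other RAB6 genes, so its probes may read more than 1 transcript. At these levels the arrays do not show whether the transcripts were present.

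TBC1D31 and TBC1D32 carry the name of the RAB-GAP domain family and are known for their part in cilia, TBC1D31 at centriolar satellites and TBC1D32 (BROMI) in ciliary Hedgehog signalling. TBC1D32 was at 5.48, 5.11 and 5.38 in NSC and 5.63, 5.64 and 5.74 in shBRG1. The groups did not overlap, and NSC replicate 2 was the lowest sample. The change was 0.34 (SE 0.10, 95% interval 0.10 to 0.59, adjusted p = 0.0631 by limma). It passed without NSC replicate 1 (change 0.42, adjusted p = 0.049), with dim genes left out (0.023) and with a trended and robust spread (0.049). TBC1D32 passed in no other setting run. Without NSC replicate 2 its change was 0.24 (adjusted p = 0.121, limma). The adjusted p was 0.168 without shBRG1 replicate 3 and 0.159 with every probe set tested.

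TBC1D31 was at 7.14, 7.11 and 7.14 in NSC and 6.98, 6.81 and 7.02 in shBRG1, a change of -0.19 (SE 0.077, adjusted p = 0.137 by limma) with no overlap, and passed only with dim genes left out (0.0499).

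**Figure D4:**
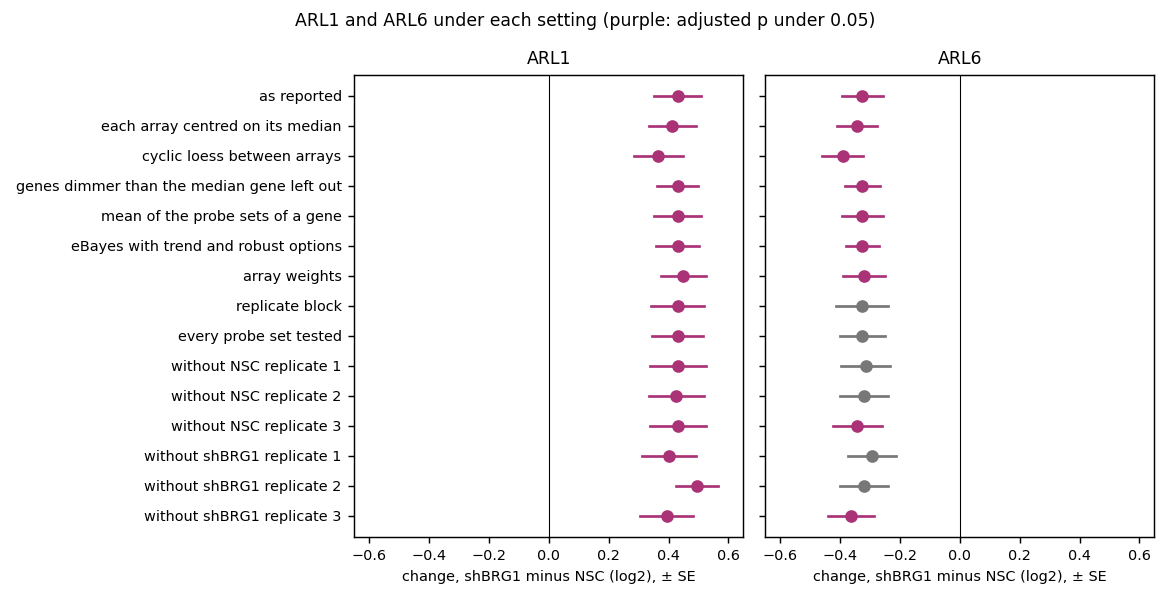
Change of ARL1 (left) and ARL6 (right), shBRG1 minus NSC on the log2 scale ± SE (x axis), in the reported fit and under 14 other settings (y axis), purple where the adjusted p is under 0.05. ARL1 is past the threshold in every setting shown, while ARL6 keeps its size, -0.39 to -0.29, and is not past it in 6 of the settings.

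Genes that act on or with these GTPases were taken from 8 lists, 208 genes in all, of which 143 were measured. By limma 15 rose and 11 fell, so 18.2% were called and 117 were not, against 17.0% of all named genes. Among 16 measured ARF GEFs 2 rose and 0 fell. The lower count became 2 after cyclic loess and with dim genes left out. It became 1 with trend and robust options and without NSC replicate 1. GBF1, the Golgi exchange factor that loads ARF proteins for COPI coats, rose by 0.65 (SE 0.071, adjusted p = 0.00151), from 9.23, 9.10 and 9.25 in NSC to 9.88, 9.84 and 9.81 in shBRG1, without overlap and under every setting run. CYTH1, an exchange factor of the cytohesin family, rose by 0.41 (adjusted p = 0.031), a call lost on leaving out NSC replicate 2 (0.072), NSC replicate 3 (0.059), shBRG1 replicate 1 (0.096) or shBRG1 replicate 2 (0.094). Among 15 GAPs for ARF and ARL proteins ELMOD3 rose (0.26, adjusted p = 0.0496) and 0 fell. The call of ELMOD3 was lost without any 1 of the 6 arrays (0.077 to 0.137), after centring and with trend and robust options. Its mean level of 3.72 was below the median named gene (5.09), where RMA values can be background. The lower count of this list became 1 after cyclic loess, with dim genes left out and with trend and robust options. Of 7 ARF and ARL effectors and coat genes 1 fell, GOLGA4, a GRIP-domain golgin that binds ARL1 (-0.44, SE 0.076, adjusted p = 0.00823). GOLGA4 was at 7.44, 7.24 and 7.37 in NSC and 6.92, 6.87 and 6.95 in shBRG1, the opposite direction to ARL1. The other GRIP-domain golgins and the arfaptins, chosen after their values were seen, had changes of 0.10 (GOLGA1, adjusted p = 0.517), -0.13 (GCC1, 0.321), -0.13 (ARFIP1, 0.280) and -0.21 (ARFIP2, 0.123). GCC2, which is counted with the RAB effectors below and not in this list, fell by 0.22 (adjusted p = 0.048). Its call was lost on leaving out each of the 6 arrays in turn (adjusted p of 0.088 to 0.131).

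On the RAB side, all 12 measured GAPs without a TBC1D number had a change above 0, as did 7612 of all 14883 named genes. Of the 12, 4 passed, all higher (33.3%), against 9.78% of all genes higher and 17.0% either way. The list was chosen with earlier results of these data known, so this share cannot be read as a test of the list. The list's median change was 0.24, and 0.20 after cyclic loess, when 11 of 12 were above 0, as also after centring. USP6NL (0.47, adjusted p = 0.00553), EVI5 (0.41, 0.00890), SGSM3 (0.37, 0.0102) and EVI5L (0.59, 0.0141, and 0.0503 with every probe set tested) rose. Of 38 RAB GEFs 5 rose and 2 fell, with a median change of 0.02. The higher and lower counts were 1 and 1 with the replicate number as a block in the fit. They were 2 and 1 with every probe set tested, and 9 and 4 with dim genes left out (26 genes). MON1B, part of the exchange factor of RAB7, rose by 0.69 (adjusted p = 0.00904) and DENND4B by 0.34 (0.0106, and 0.052 with the replicate block). DENND1B fell by 0.52 (0.00354) and GAPVD1, which activates RAB5, fell by 0.32 (0.0145). The call of GAPVD1 was lost without shBRG1 replicate 3 (0.057), with the replicate block (0.061) and with every probe set tested (0.058). HPS4 (0.36), RIC1 (0.37) and TRAPPC9 (0.42) completed the 5 and were named after their values were seen. All 3 lost their call without NSC replicate 2 (adjusted p = 0.060, 0.073 and 0.074), TRAPPC9 also without NSC replicate 1 (0.077), RIC1 without any sample but shBRG1 replicate 3 (0.057 to 0.076), and HPS4 without any 1 of the shBRG1 samples (0.051 to 0.066).

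Of 42 RAB effectors 3 rose and 6 fell, with a median change of -0.09. Their share called was 21.4%, against 17.0% of all named genes, of which 9.78% were higher and 7.19% lower. The higher count was 3 whichever array was left out, but the lower count became 1, 3 and 2 without NSC replicate 1, 2 and 3, and 1, 3 and 0 without shBRG1 replicate 1, 2 and 3, and 0 with every probe set tested. VPS39 (0.56, adjusted p = 0.00365) and VPS41 (0.33, 0.0119, and 0.0503 with every probe set tested), subunits of the HOPS tether of late endosomes, rose, as did OSBPL1A (0.57, 0.00713), a sterol sensor that binds RAB7. SH3TC2, an effector of RAB11, fell by 0.59 (0.0214), a call lost without NSC replicate 3 (0.051) or shBRG1 replicate 2 (0.064) or 3 (0.059). Its mean over the 6 arrays was 3.70, below the median named gene (5.09), where RMA values can be background. Of 8 genes for extraction from membranes and lipid anchors 1 fell (12.5% called), CHML, an escort protein that presents RAB proteins for prenylation. CHML changed by -0.72 (SE 0.070, adjusted p = 0.000988), from 8.33, 8.17 and 8.27 in NSC to 7.55, 7.56 and 7.52 in shBRG1. Of 5 other small GTPases of the family 1 was called (20.0%), RASEF, which fell (-0.66, adjusted p = 0.00624).

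**Figure D5:**
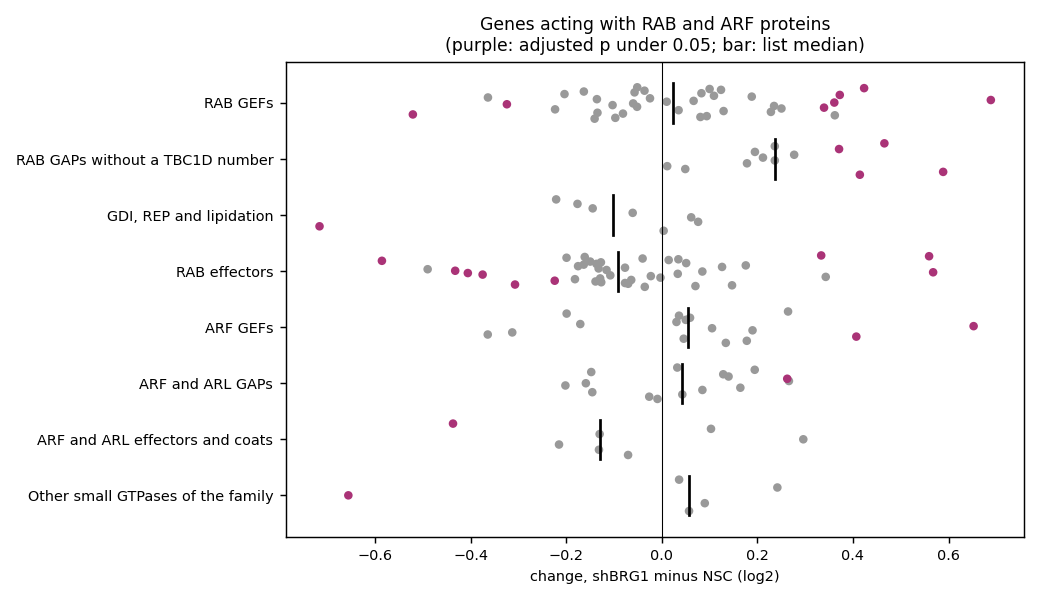
Change, shBRG1 minus NSC (x axis, log2), of each measured gene of 8 lists of genes that act with RAB and ARF proteins (y axis), purple where the adjusted p is under 0.05 and with a black bar at the list median. All 12 RAB GAPs without a TBC1D number lie above 0 around a median of 0.24, whereas the other lists spread to both sides. The lists were chosen with earlier results of these data known.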

How the data were processed

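The deposited values are log2 levels per probe set, made by the authors with RMA. The submitters' processing notes name oligo 1.27, limma 3.19 and R 3.1.0. RMA gives the probe intensities of all arrays the same distribution before they are summarised per probe set. This hides a shift common to all genes and compresses low levels, though the array medians still differ slightly. No label names the genome build of the probes, and scanner files and detection calls were not used here. All 6 columns were mapped by sample accession.

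Of 52299 probe sets, 15828 carried 1 symbol, 0 several and 36471 none. For each gene the brightest probe set by mean of 6 arrays was kept. The 14883 genes were tested in R 4.3.3 with limma 3.58.1 (linear model with moderated spread, two-sided, all 6 arrays, no covariates), with Benjamini-Hochberg adjustment over all of them and a threshold of 0.05. Members, lists and settings were chosen with earlier results of these data known. The text names called members, paralogues sharing their number, a set of well-known members, and up to 4 called genes per list. ARL9, ARL11, ARL14, ARL15, ARL16, RAB6D, TBC1D31 and TBC1D32 are also given where the rule did not reach them, so that all members appear. Tested on simulated data for 14883 genes, the fit found 47 of 100 simulated log2 changes of 0.5 and 92 of 100 of size 1. There were 4 false calls among 143, so a change of 0.5 or less can be missed. Only 100 genes of each size were changed, with independent normal noise, against 2525 genes called in the data. The shares found may therefore differ from those of the real fit. The number of arrays limits the precision. Permutation tests used scipy 1.17.1.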

Additional observations from a re-analysis of the deposited data

How the results depend on the processing

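The rise of ARL1 kept its direction and side of the threshold under all settings run. ARL6 kept its direction under all of them, and its count of 1 lower member became 0 with the replicate block, with every probe set tested, and at an adjusted p of 0.01, and 2 with dim genes left out, while leaving out 1 array gave 0 to 1. The count of 1 higher member became 2 with dim genes left out and 3 with trend and robust options, and 1 to 2 without 1 array. Titles number the replicates of both groups 1 to 3, but same-numbered samples did not deviate together (correlations of -0.044, -0.144 and -0.033), and 0 of 3 pairs matched best. The replicate block gave 1608 called genes against 2525, and 13 called partner genes against 26, with 1 RAB effector lower against 6. Testing every probe set gave 1259 and 12, and an adjusted p of 0.01 gave 1086 and 10. Without 1 array the counts were 1604 to 1840 and 17 to 20, the lowest without shBRG1 replicate 3 and shBRG1 replicate 1. Allowing up to 2 letters after the digits left both counts of members at 1. Of all called genes 57.6% were higher, and 47.7% after cyclic loess. No scaling moved the median of all genes by over 0.1. The cause of these shifts was not tested. Dim members such as RAB6D are limited by signal over background.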

Other observations

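Genes of the RAB7 step at late endosomes, gathered after their values were seen, were higher where they passed the test. Of 10 such genes 8 were measured, and 4 rose and 0 fell by limma, namely MON1B (0.69), OSBPL1A (0.57), VPS39 (0.56) and VPS41 (0.33). Over all named genes 9.78% rose and 7.19% fell, and since the list was picked by its values the count supports nothing. VPS41 was not past the threshold with the replicate block (adjusted p = 0.055) or with every probe set tested (0.050). The other 4 had changes of 0.09 (CCZ1, a partner of MON1B, adjusted p = 0.543), 0.07 (MON1A, 0.589), -0.08 (RILP, a RAB7 effector that recruits dynein, 0.783) and -0.14 (FYCO1, which links RAB7 vesicles to kinesin, 0.353). RAB7A itself is not analysed here.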
